A study of Mus musculus with 48 samples.

Results

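Genes of cholesterol and fatty acid synthesis were followed in mouse brain RNA as 36 members, chosen by gene symbol. They were 19 enzymes of the sterol pathway, 7 genes of sterol sensing and trafficking and 10 genes of fatty acid synthesis. All 36 were present among the 15304 genes of the hippocampal files and the 15263 of the frontal cortex files (14976 in both), and all 36 passed the filter on low counts in both tissues. Male C57BL/6 mice of postnatal day 63 to 91 spent 3 days in a control or a stress environment. They were injected intraperitoneally with vehicle or esomeprazole, a proton pump inhibitor, 60 min past the end of each session, and brains were collected 12 h from the final drug. For esomeprazole the series text states 2 mg/kg and the treatment protocol 2 g/kg. Hippocampus and frontal cortex each gave 24 libraries of polyadenylated RNA, with 6 in each of 4 groups (non-stressed vehicle, non-stressed esomeprazole, stressed vehicle and stressed esomeprazole). No transgene or deletion is named in any group.

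Cells make cholesterol from acetyl-CoA through mevalonate, isoprenoids, squalene and lanosterol, and fatty acids from acetyl-CoA through malonyl-CoA. When sterol in the endoplasmic reticulum runs low, the escort protein encoded by Scap carries the precursors encoded by Srebf1 and Srebf2 to the Golgi, where cleavage frees factors that switch on most genes of both pathways, whereas Insig proteins hold the complex back when sterol is plentiful. The brain makes nearly all of its own cholesterol, much of it for myelin, because lipoproteins do not cross the blood-brain barrier.

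The promoters of 4 members are shown because they span the upper part of the pathway, 2 later steps and its feedback inhibitor: Hmgcs1 (HMG-CoA synthase), Cyp51 (lanosterol demethylase), Msmo1 (methylsterol monooxygenase) and Insig1. They were chosen after the values were known. Each runs from 250 bases before to 50 bases after the start of the transcript in RefSeq on GRCm38.p6, 5′ to 3′ on the strand of the gene. Capitals mark TCACNCCAC (a sterol regulatory element), CCAAT (the NF-Y box), GGGCGG (the GC box) and CACGTG (an E-box), each on either strand.
Hmgcs1 promoter, chr13:119690101-119690400, plus strand: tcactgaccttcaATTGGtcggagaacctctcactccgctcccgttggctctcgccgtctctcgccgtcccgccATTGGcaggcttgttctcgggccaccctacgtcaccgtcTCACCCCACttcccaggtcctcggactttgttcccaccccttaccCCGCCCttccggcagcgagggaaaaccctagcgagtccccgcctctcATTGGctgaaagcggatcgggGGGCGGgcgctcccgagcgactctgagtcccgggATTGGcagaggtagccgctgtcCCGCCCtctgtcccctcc
Cyp51 promoter, chr5:4104648-4104947, minus strand: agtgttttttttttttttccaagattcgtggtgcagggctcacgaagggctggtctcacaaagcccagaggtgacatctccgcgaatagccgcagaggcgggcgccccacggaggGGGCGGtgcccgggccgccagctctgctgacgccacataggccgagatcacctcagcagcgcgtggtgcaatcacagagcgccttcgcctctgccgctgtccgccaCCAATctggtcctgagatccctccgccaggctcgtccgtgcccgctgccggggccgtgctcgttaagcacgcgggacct
Msmo1 promoter, chr8:64733529-64733828, minus strand: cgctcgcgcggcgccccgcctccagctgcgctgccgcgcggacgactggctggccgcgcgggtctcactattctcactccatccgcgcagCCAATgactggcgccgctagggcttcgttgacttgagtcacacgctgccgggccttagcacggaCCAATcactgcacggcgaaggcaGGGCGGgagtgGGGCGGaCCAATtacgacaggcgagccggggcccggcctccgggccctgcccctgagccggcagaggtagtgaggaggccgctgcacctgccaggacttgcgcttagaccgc
Insig1 promoter, chr5:28071162-28071461, plus strand: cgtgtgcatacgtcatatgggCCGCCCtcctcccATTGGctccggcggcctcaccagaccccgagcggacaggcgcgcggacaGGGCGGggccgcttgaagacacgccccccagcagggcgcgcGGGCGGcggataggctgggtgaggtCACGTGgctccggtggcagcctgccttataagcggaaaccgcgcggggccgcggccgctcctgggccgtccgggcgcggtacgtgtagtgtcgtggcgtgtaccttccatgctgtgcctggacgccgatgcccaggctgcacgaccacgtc
The motif TCACNCCAC was found in 1 of 37 promoters of the 29 members with an entry, that of Hmgcs1, and in 1.24% of all 32851 promoters of the table. CCAAT was present in 67.6% of the members' promoters against 37.4% of all, GGGCGG in 73% against 35.7%, and CACGTG in 18.9% against 7.15%. Hmgcs1 held 4 CCAAT and 3 GGGCGG matches, Msmo1 held 3 and 2, Insig1 held 1 and 3 with 1 CACGTG, and Cyp51 held 1 of each of the first 2 kinds. None of the matches overlapped another. These are descriptions of letters in a window, and no binding was measured here.

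Reads assigned to genes ran from 25316174 to 41995689 per library in hippocampus and from 27582732 to 41467509 in frontal cortex. The labelled tissues had their markers: 13 of 13 hippocampal neuron markers were higher in hippocampus (median log2 difference 1.79) and 8 of 12 cortical neuron markers in frontal cortex. In 5 hippocampal and 7 frontal cortex libraries the share of reads in no annotated gene was under 12%, at most 11.7%, against 14.1% or more in all others; every group held 1 or 2 of them. Another 5 hippocampal libraries had striatal neuron marker scores of 2.60 to 3.90 (mean log2 deviation from the tissue mean), where the other 19 were at or under -0.12. All 5 came from stressed mice, 1 given vehicle and 4 given esomeprazole. The summed striatal markers (12 of 15) ran from 6846 to 12200 normalised reads in non-stressed vehicle, from 7328 to 9819 in non-stressed esomeprazole, from 7149 to 43470 in stressed vehicle and from 6699 to 106800 in stressed esomeprazole libraries, and 3 of 15 striatal markers were at 0 in some hippocampal library. In frontal cortex, 7 libraries had olfactory bulb marker scores of -3.49 to -2.41 against 0.51 or more in the other 17, with 4 of the 7 in non-stressed vehicle mice and 1 in each other group; no bulb marker was at 0 in any of them. Oligodendrocyte markers, of the cells that make myelin, were higher in hippocampus than in frontal cortex for 12 of 12 (median log2 difference 1.04). Choroid plexus markers were higher there for 6 of 7 (median 3.87), and olfactory bulb markers lower for 10 of 12 (median -2.99). The median sum of bulb markers was 47020 normalised reads over the frontal cortex libraries and 12610 over the hippocampal libraries. In such bulk tissue a change in the share of a cell type and a change in RNA per cell cannot be told apart.

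Levels per kilobase of the longest coding transcript spanned more than 2 orders of magnitude among the members, and the desaturases led. Scd2, the stearoyl-CoA desaturase prominent in brain, had 11360 ± 1202 normalised reads per kb in hippocampus (SD, n = 24) and 11700 ± 2080 in frontal cortex. Next came Fads1, a desaturase of polyunsaturated fatty acids, at 3115 ± 587 per kb in hippocampus and 3399 ± 917 in frontal cortex. Hmgcs1 was the highest sterol enzyme, at 1914 ± 551 per kb in hippocampus and 1998 ± 869 in frontal cortex. In hippocampus Fads2 (1672 ± 833 per kb), Scd1 (1629 ± 279), Fdps (1615 ± 970) and Srebf2 (1581 ± 732) followed with differences smaller than their spread. The lowest 3 members in hippocampus were Hsd17b7 (134 ± 30.0 per kb), Idi1 (106 ± 48.2) and Stard4 (79.0 ± 28.8), and the same 3 were lowest in frontal cortex, with Stard4 at 106 ± 48.4 and Idi1 at 91.0 ± 55.7. Srebf1 stood at 588 ± 271 per kb in hippocampus against 1581 ± 732 for Srebf2.

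The libraries of low no-gene share held much of the spread of the members between libraries. The median coefficient of variation over 24 libraries was 31.5% in hippocampus and 38.7% in frontal cortex. Over the libraries with a share of 12% or more it was 13.1% and 14.4%. Over all genes tested the medians were 34.0% against 15.8% in hippocampus and 36.9% against 17.05% in frontal cortex. In hippocampus 10 members lay higher in each of the 5 libraries of low share than in any other, and 8 lay lower, beside 21.5% and 20.7% of all genes. In frontal cortex 11 members lay wholly higher and 5 wholly lower, beside 17.9% and 19.9% of all genes.

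**Figure D1:**
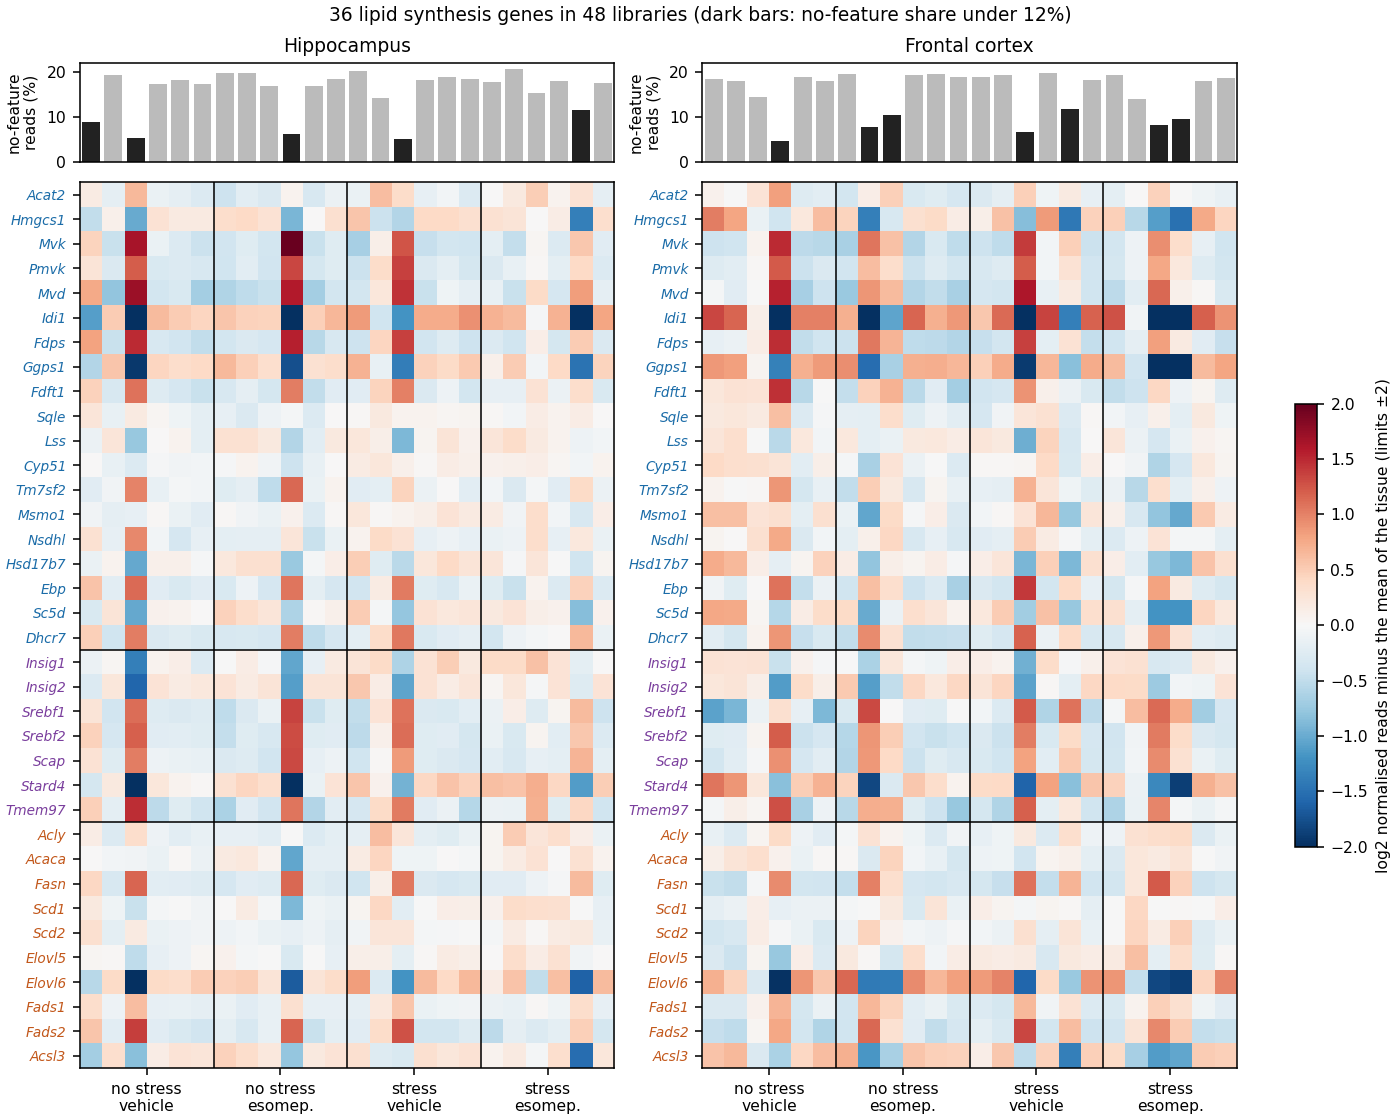
Log2 normalised reads of the 36 members (rows: sterol enzymes in blue, sensing and trafficking in purple, fatty acid genes in orange) in 24 hippocampal and 24 frontal cortex libraries (columns, in groups of 6), each minus the mean of the gene in the tissue. Bars above give the percentage of reads in no gene, dark where under 12%; the columns under dark bars stand apart from their groups, as for Idi1 (lower) and Mvk (higher).

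The direction went by gene and had the same sign in both tissues for every member but Acaca (-0.22 in hippocampus and 0.11 in frontal cortex). The log2 difference between the libraries of low share and the rest was fitted within treatment groups. Idi1, the isomerase that makes the second isoprenoid building block, stood at -2.60 in hippocampus and -3.14 in frontal cortex. Its hippocampal reads ran from 30.4 to 120 in those 5 libraries and from 194 to 486 in the other 19, without overlap. The elongase gene Elovl6 (-1.83 and -2.23), Ggps1, which makes geranylgeranyl diphosphate (-1.83 and -2.13), and the sterol carrier gene Stard4 (-1.65 and -1.69) were low in the same libraries. Mvd, which decarboxylates mevalonate diphosphate, was higher there by 1.64 and 1.27, as were mevalonate kinase Mvk (1.495 and 1.295), farnesyl diphosphate synthase Fdps (1.46 and 1.23) and fatty acid synthase Fasn (1.12 and 1.17). Across the 36 members the difference had a Pearson correlation of 0.87 with the G+C content of the transcript in hippocampus and 0.85 in frontal cortex, where all genes gave 0.79 and 0.81; genes within the same libraries are not independent replicates. Sqle differed by 0.16 in each tissue, Cyp51 by -0.14 and -0.23, and Msmo1 by -0.07 in hippocampus but -0.48 in frontal cortex; their transcripts hold 49.4%, 46.2% and 45.2% G+C. The part of library preparation or RNA quality in this was not tested.

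**Figure D2:**
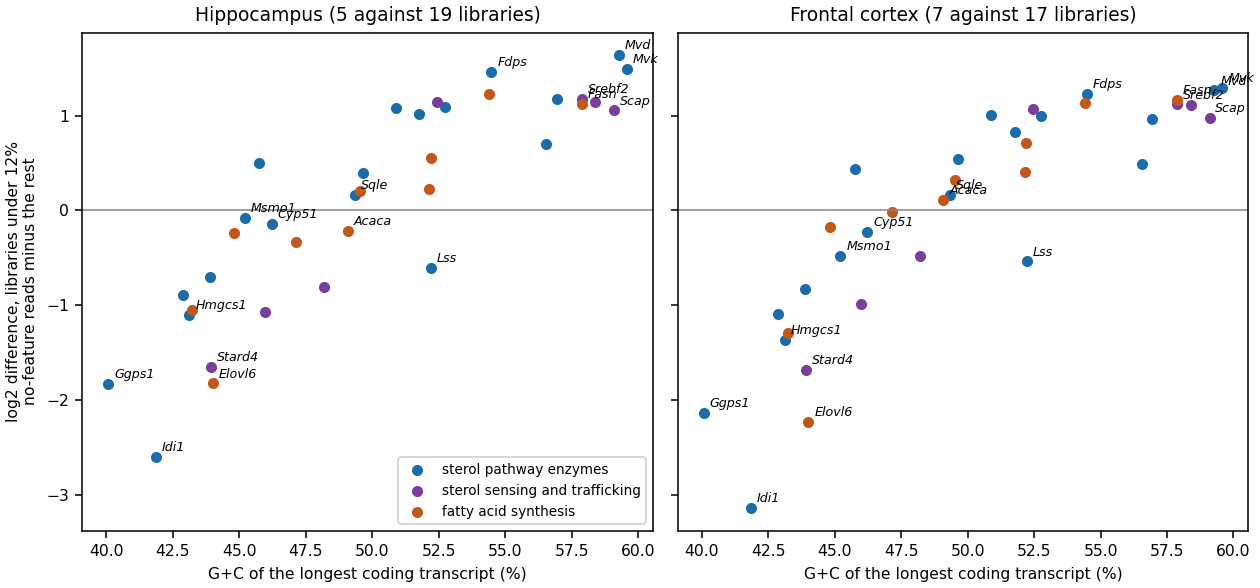
Each point is a member, in hippocampus (left) and frontal cortex (right). The x axis gives the G+C content of its longest coding transcript (percent). The y axis gives the log2 difference, fitted within treatment groups, between libraries with under 12% of reads in no gene and the rest. Members of low G+C such as Idi1 and Ggps1 lie lowest and those of high G+C such as Mvd and Mvk highest.

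In hippocampus 26 of 36 members were higher after stress, averaged over the drug arms, with a median log2 change of 0.08 against -0.01 over all 15062 genes tested, but none passed the test. limma called 0 members higher and 0 lower at an adjusted p under 0.05, beside 0.0133% of all genes called (2 genes, both lower); 5 members were higher and 0 lower at an unadjusted p under 0.05, beside 3.29% of all genes higher and 2.62% lower. edgeR and DESeq2 called 0 members too, though each called more genes in all than limma, as given below. Sterol enzymes were higher for 14 of 19 (median 0.07), sensing and trafficking genes for 5 of 7 (median 0.07) and fatty acid genes for 7 of 10 (median 0.13). With the median-of-ratios or the deposited scaling 25 of 36 were higher. Striatal neuron markers were higher after stress for 14 of 14 (median 1.49) and hippocampal neuron markers lower for 13 of 14 (median -0.71, sums of 41290 to 94000 reads in non-stressed and 17030 to 68390 in stressed libraries). Oligodendrocyte markers were higher for 10 of 12 (median 0.08, sums of 145300 to 400800 reads in non-stressed and 163800 to 440100 in stressed libraries) and endothelial markers for 7 of 8 (median 0.13), while microglial markers were lower for 9 of 10 (median -0.16) and astrocyte markers for 8 of 10 (median -0.06). The part of these cell types in the result was not tested. Without the 5 libraries of high striatal score, which leaves 2 stressed esomeprazole libraries, 1 of them of low no-gene share, 21 of 36 members were higher, the median was 0.01 for all members, 0.01 for sterol enzymes and 0.03 for fatty acid genes, and 0 members reached an unadjusted p under 0.05. Without the 5 libraries of low no-gene share instead, 32 of 36 were higher (18 of 19 sterol enzymes), the median was 0.14, and 14 members were higher at an unadjusted p under 0.05, beside 8.57% of all genes. Without both kinds of library, which leaves 1 stressed esomeprazole library assumed to vary like the others, 26 of 36 were higher (median 0.05), among them 16 of 19 sterol enzymes. With 2 surrogate variables limma called 3 members higher, beside 3.56% of all genes: Cyp51 (adjusted p = 0.0326), Insig1 (adjusted p = 0.0431) and Stard4 (adjusted p = 0.047).

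Cyp51, the demethylase that turns lanosterol toward cholesterol (chromosome 5, 4081145 to 4104746, minus strand, mm10, overlapping Akap9 on the other strand), had the smallest p of the members. Its hippocampal reads were 1764, 2041 and 2137 (lowest, median and highest of 6) in non-stressed vehicle, 2170.5, 2338 and 2489 in stressed vehicle, 1602, 2070.1 and 2252 in non-stressed esomeprazole and 2066, 2260 and 2354 in stressed esomeprazole libraries. All 6 stressed vehicle libraries lay above all 6 non-stressed vehicle libraries, whereas the esomeprazole groups overlapped. Cyp51 was picked by its p in these same data, and the share of all genes that separate these groups is not given here. The log2 change was 0.19 ± 0.06 (limma SE, adjusted p = 0.623), and it was 0.13 ± 0.09 without the libraries of high striatal score. In frontal cortex the 4 groups in the same order had 1865, 2651 and 2845, then 1756, 2215 and 2857, then 1371, 2046 and 2601, then 1415, 2111 and 2505 reads, and overlapped throughout.

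Msmo1, which acts after Cyp51 in the demethylation of the sterol ring (chromosome 8, 64718139 to 64733792, minus strand), followed it. Hippocampal reads were 2312, 2451 and 2768 in non-stressed vehicle, 2750.4, 3009.8 and 3269 in stressed vehicle, 2244, 2663 and 2870 in non-stressed esomeprazole and 2166, 2791 and 3469 in stressed esomeprazole libraries. Only the edges of the vehicle groups overlapped, and the esomeprazole groups overlapped fully. The averaged log2 change was 0.18 ± 0.07 (limma, adjusted p = 0.732) and 0.10 ± 0.09 without the libraries of high striatal score. Frontal cortex had 1964, 2795 and 3400.2 reads in non-stressed vehicle, 1332, 2468 and 3562 in stressed vehicle, 1088, 2135 and 2936 in non-stressed esomeprazole and 1107, 2105 and 3248 in stressed esomeprazole libraries, a wider spread than in hippocampus.

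Sqle, squalene epoxidase, which commits squalene to the sterol branch (chromosome 15, 59315077 to 59331192, plus strand), had 1915, 2163 and 2612 hippocampal reads in non-stressed vehicle, 2246, 2303 and 2529.6 in stressed vehicle, 1802, 2019 and 2212 in non-stressed esomeprazole and 2122, 2274 and 2432 in stressed esomeprazole libraries. Stressed and non-stressed groups overlapped within each drug arm, and the change was 0.13 ± 0.07 (limma, adjusted p = 0.863). Lanosterol synthase, Lss (chromosome 10, 76531588 to 76557138, plus strand), had 722, 1177 and 1439 reads in non-stressed vehicle, 658, 1305 and 1454 in stressed vehicle, 816, 1397 and 1515 in non-stressed esomeprazole and 1135, 1337 and 1578 in stressed esomeprazole libraries. These overlapped in every pairing. Its change with stress was 0.09 ± 0.14 (limma, adjusted p = 1.00). For Idi1 (chromosome 13, 8885501 to 8892451, plus strand) the same order gave 30.4, 357 and 398, then 112, 431 and 486, then 51.8, 356 and 409.92, then 38.7, 407 and 443 reads. The lowest value of each group was a library of low no-gene share, and the change of 0.29 ± 0.48 was small beside that spread. Other sterol enzymes ran from -0.19 (Mvk) to 0.21 (Acat2, acetoacetyl-CoA thiolase).

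In frontal cortex Sqle had 1831, 2512 and 3336 reads in non-stressed vehicle, 1750.5, 2165 and 2706 in stressed vehicle, 1857, 1934 and 2811 in non-stressed esomeprazole and 1931, 2103 and 2514 in stressed esomeprazole libraries. Lss there had 984, 1544 and 1814, then 729, 1543 and 1955, then 1259, 1620.2 and 1668, then 1136, 1398 and 1705 reads in that order. Idi1 had 39.9, 383 and 482, then 33.3, 347 and 485, then 34.7, 312 and 426, then 15.98, 268 and 459 reads. None of the 3 enzymes separated the groups of that tissue.

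Insig1, whose protein holds back precursor cleavage when sterol is plentiful (chromosome 5, 28071363 to 28078662, plus strand), had the second largest hippocampal change among the members. Hippocampal reads were 627, 1583 and 1791 in non-stressed vehicle, 1060.2, 1962 and 2294 in stressed vehicle, 790.37, 1611 and 1834 in non-stressed esomeprazole and 1428, 2044 and 2450.1 in stressed esomeprazole libraries. Medians were higher in both stressed groups and the ranges overlapped, the lowest value of each group being a library of low no-gene share. The change was 0.41 ± 0.17 (limma, adjusted p = 0.762) and 0.19 ± 0.24 without the libraries of high striatal score. Frontal cortex had 1396, 2158 and 2318 reads in non-stressed vehicle, 975, 2009 and 2451 in stressed vehicle, 1222, 1856 and 2214 in non-stressed esomeprazole and 1523, 2083 and 2334 in stressed esomeprazole libraries, with a change of -0.01 ± 0.14 (limma, adjusted p = 0.994).

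Stard4, a carrier of cholesterol between membranes (chromosome 18, 33199355 to 33213862, minus strand), had the largest hippocampal change, with a wide error. Its reads were 76.6, 372 and 420.1 in non-stressed vehicle, 187, 486 and 536 in stressed vehicle, 86.8, 439.87 and 487 in non-stressed esomeprazole and 165, 521 and 597 in stressed esomeprazole libraries. The ranges overlapped, and the change was 0.48 ± 0.32 (limma, adjusted p = 1.00). In frontal cortex the order gave 263, 712 and 991, then 155, 619.79 and 828, then 132, 549 and 684, then 127, 541 and 774 reads, and the change was -0.30 ± 0.36 (limma, adjusted p = 0.941). Tmem97, a sterol-binding membrane protein (chromosome 11, 78541817 to 78550777, minus strand), had hippocampal reads of 257, 318 and 1029, then 250.37, 328 and 766, then 238, 299.71 and 779, then 282, 339 and 605 in that order. Frontal cortex had 334, 521 and 1281, then 345, 434 and 1198, then 307, 417 and 868, then 341, 493 and 1035 reads of it. The highest value of Tmem97 was a library of low no-gene share in every group but hippocampal stressed esomeprazole, and stress changed it by 0.07 ± 0.24 in hippocampus (limma, adjusted p = 1.00).

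Srebf1, the precursor that favours fatty acid genes (chromosome 11, 60199089 to 60222581, minus strand, overlapping Rai1 on the other strand), was among the members of smallest p in frontal cortex. It had 1229.6, 1856 and 3217 reads there in non-stressed vehicle, 1708, 2324 and 6053 in stressed vehicle, 2098, 2395 and 6478 in non-stressed esomeprazole and 1607, 3239 and 5654 in stressed esomeprazole libraries. The groups overlapped, and the change with stress was 0.38 ± 0.27 (limma, adjusted p = 0.941). It was 0.13 ± 0.25 with the bulb score as a covariate, 0.37 ± 0.33 without the libraries of low bulb score and 0.03 ± 0.08 with 2 surrogate variables. Hippocampal reads were 1798, 1957 and 5053, then 1661, 1976 and 4959, then 1643, 1953 and 5967, then 1751, 2287 and 3609.9 in the same order, with a change of 0.01 ± 0.22. Srebf2, Scap and Insig2 changed by -0.07 ± 0.22, -0.13 ± 0.20 and 0.14 ± 0.21 in hippocampus.

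Among fatty acid genes Scd1, which makes monounsaturated fatty acids (chromosome 19, 44394455 to 44407879, minus strand), had 5667, 7405 and 8789 hippocampal reads in non-stressed vehicle, 6632, 8157 and 10315 in stressed vehicle, 4153, 7362 and 8603 in non-stressed esomeprazole and 6885, 8937 and 9973 in stressed esomeprazole libraries. The groups overlapped, with a change of 0.24 ± 0.11 (limma, adjusted p = 0.809). The 5 libraries of high striatal score held 8217 to 10315 reads of Scd1 (median 9686) against 4153 to 8789 (median 7495) in the other 19, and without them the change was 0.06 ± 0.14. Frontal cortex had 7630.3, 7909 and 9436 reads in non-stressed vehicle, 7605, 8827 and 9479 in stressed vehicle, 6937, 8486 and 10249 in non-stressed esomeprazole and 8546, 8690.1 and 11503 in stressed esomeprazole libraries, again overlapping. Its change there was 0.10 ± 0.08 (limma, adjusted p = 0.941).

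Elovl5, an elongase of polyunsaturated fatty acids (chromosome 9, 77917364 to 77984519, plus strand), changed by a like amount in both tissues in the main fits. Hippocampal reads were 1784, 2464 and 2594 in non-stressed vehicle, 2200.3, 2742 and 2825 in stressed vehicle, 2047, 2481 and 2676 in non-stressed esomeprazole and 2410.5, 2681 and 3224 in stressed esomeprazole libraries. Frontal cortex had 1696, 2377 and 3151, then 2312, 3223 and 3285, then 2262, 3059 and 3659, then 2431, 3110.4 and 4362 reads in that order. All groups overlapped, and the changes were 0.18 ± 0.08 in hippocampus (limma, adjusted p = 0.762) and 0.21 ± 0.12 in frontal cortex (limma, adjusted p = 0.941). The frontal cortex change was 0.05 ± 0.09 with the bulb score as a covariate and 0.07 ± 0.12 without the libraries of low bulb score. Over the alternatives it ran from 0.04 to 0.21 there and from 0.07 to 0.19 in hippocampus.

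Acly, ATP citrate lyase, which supplies cytosolic acetyl-CoA (chromosome 11, 100476353 to 100528000, minus strand), had 5511, 6114 and 8490.4 hippocampal reads in non-stressed vehicle, 5634, 5964 and 10206 in stressed vehicle, 5516, 5873 and 6582 in non-stressed esomeprazole and 6034, 7577 and 9419 in stressed esomeprazole libraries. The vehicle groups had like medians, and the libraries of high striatal score held 6913 to 10206 reads against 5511 to 8490.4 in the rest. Its change was 0.21 ± 0.10 (limma, adjusted p = 0.876) and 0.02 ± 0.10 without those libraries. Acaca, acetyl-CoA carboxylase, which makes malonyl-CoA (chromosome 11, 84129672 to 84401651, plus strand), had 2060.1, 2158 and 2285 reads in non-stressed vehicle, 2118, 2219 and 3032 in stressed vehicle, 1092, 2182 and 2604 in non-stressed esomeprazole and 2266, 2443 and 2773 in stressed esomeprazole libraries, all overlapping. It changed by 0.21 ± 0.11 (limma, adjusted p = 0.921). Frontal cortex had 7116, 7887 and 11285, then 7091, 8078 and 10873, then 7112, 8289 and 10514, then 7083, 9343 and 11276 reads of Acly in the same order. For Acaca these were 2585, 3039.6 and 3564, then 2174, 2638 and 3048, then 2225, 2634 and 3852, then 2304, 3012 and 3364 reads, and neither gene separated the groups. Fasn (-0.06 ± 0.21), Fads2 (-0.11 ± 0.23) and Acsl3 (-0.03 ± 0.20), a fatty acid activating enzyme, were the 3 fatty acid genes lower in hippocampus.

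**Figure D3:**
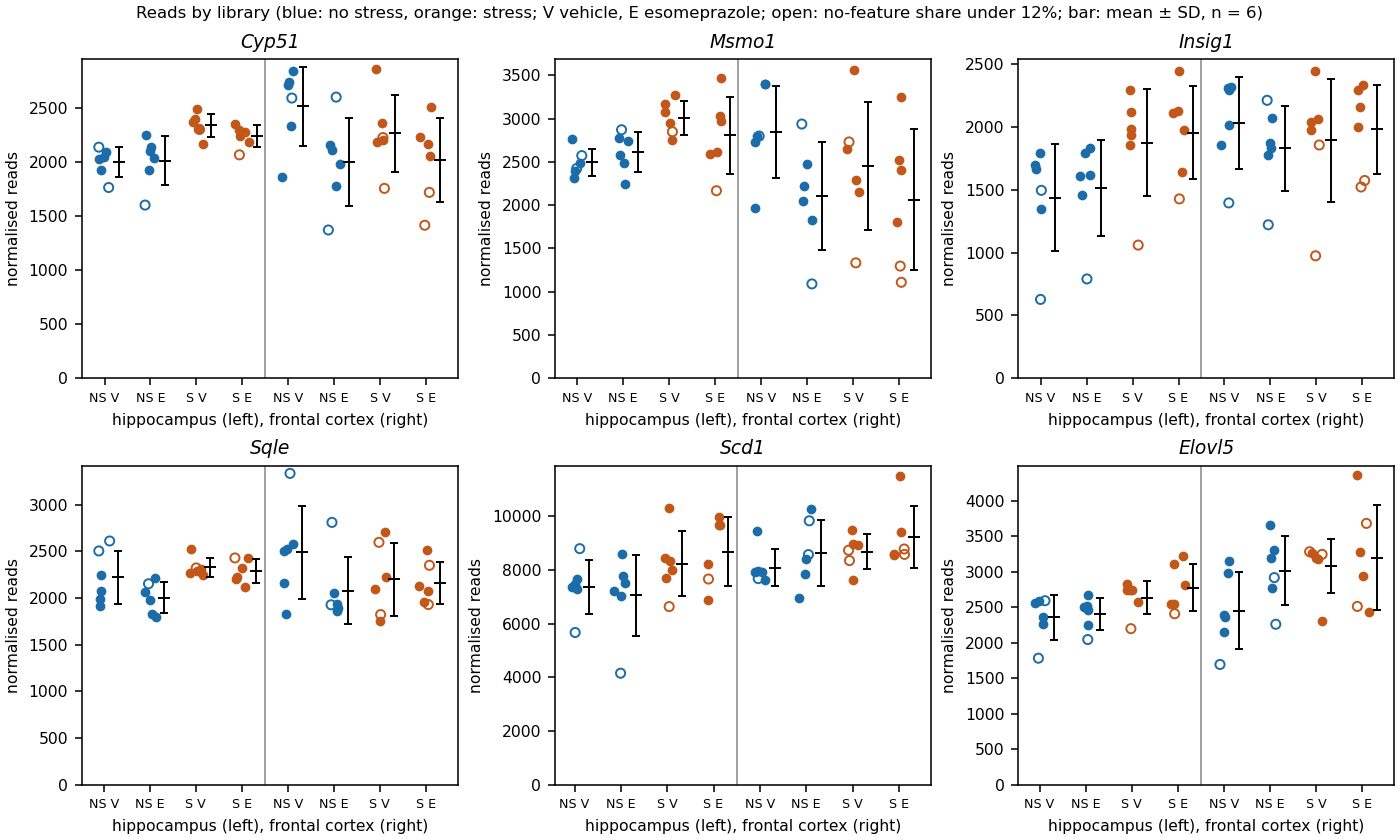
Normalised reads (y axis, from 0) of 6 members in every library of 8 groups (x axis: hippocampus left and frontal cortex right; NS no stress, S stress, V vehicle, E esomeprazole), with the mean ± SD of 6 beside each group. Open points are libraries with under 12% of reads in no gene. In the Cyp51 panel every stressed vehicle point of hippocampus lies above every non-stressed vehicle point. The 6 members are those of smallest p in hippocampal stress, and the share of all genes that separate these groups is not given here.

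Frontal cortex did not show the hippocampal direction for the sterol enzymes, though the difference between tissues did not pass the test. After stress 5 of 19 sterol enzymes were higher there (median -0.05), as were 4 of 7 sensing and trafficking genes (median 0.01) and 7 of 10 fatty acid genes (median 0.09); the median of all 15040 genes was -0.02. limma called 0 members (0% of all genes called), and 0 reached an unadjusted p under 0.05, beside 3.79% of all genes; edgeR and DESeq2 called 0 members, with 0 at an unadjusted p under 0.05. Without the 7 libraries of low no-gene share 14 of 19 sterol enzymes were higher (median 0.04). Olfactory bulb markers were higher after stress for 13 of 13 (median 1.41), meningeal fibroblast markers for 9 of 10 (median 0.64), and cortical neuron markers lower for 9 of 12 (median -0.33). Without the 7 of low olfactory bulb score 11 of 19 were higher (median 0.04), and without both kinds 9 of 19 (median -0.01). The part of these libraries in the result was not tested.

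The stress effect in hippocampus minus that in frontal cortex was above 0 for 12 of 19 sterol enzymes (median 0.19) and 5 of 10 fatty acid genes (median 0.06), against a median of 0.01 over 14844 genes. limma called 0 members (0% of all genes called); Cyp51 was the 1 member at an unadjusted p under 0.05 (0.26 ± 0.12, adjusted p = 0.948), beside 3.81% of all genes. edgeR and DESeq2 called 0 members. Insig1 differed by 0.41 ± 0.23 and Acaca by 0.26 ± 0.14 between tissues (limma, adjusted p = 0.948 for both), and Elovl5 by -0.03 ± 0.14. With the striatal and olfactory bulb scores as covariates the median of the sterol enzymes was -0.01. Within hippocampus the median change was 0.13 for fatty acid genes and 0.07 for sterol enzymes, and within frontal cortex 0.09 and -0.05; the difference between these groups of genes was not tested.

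**Figure D4:**
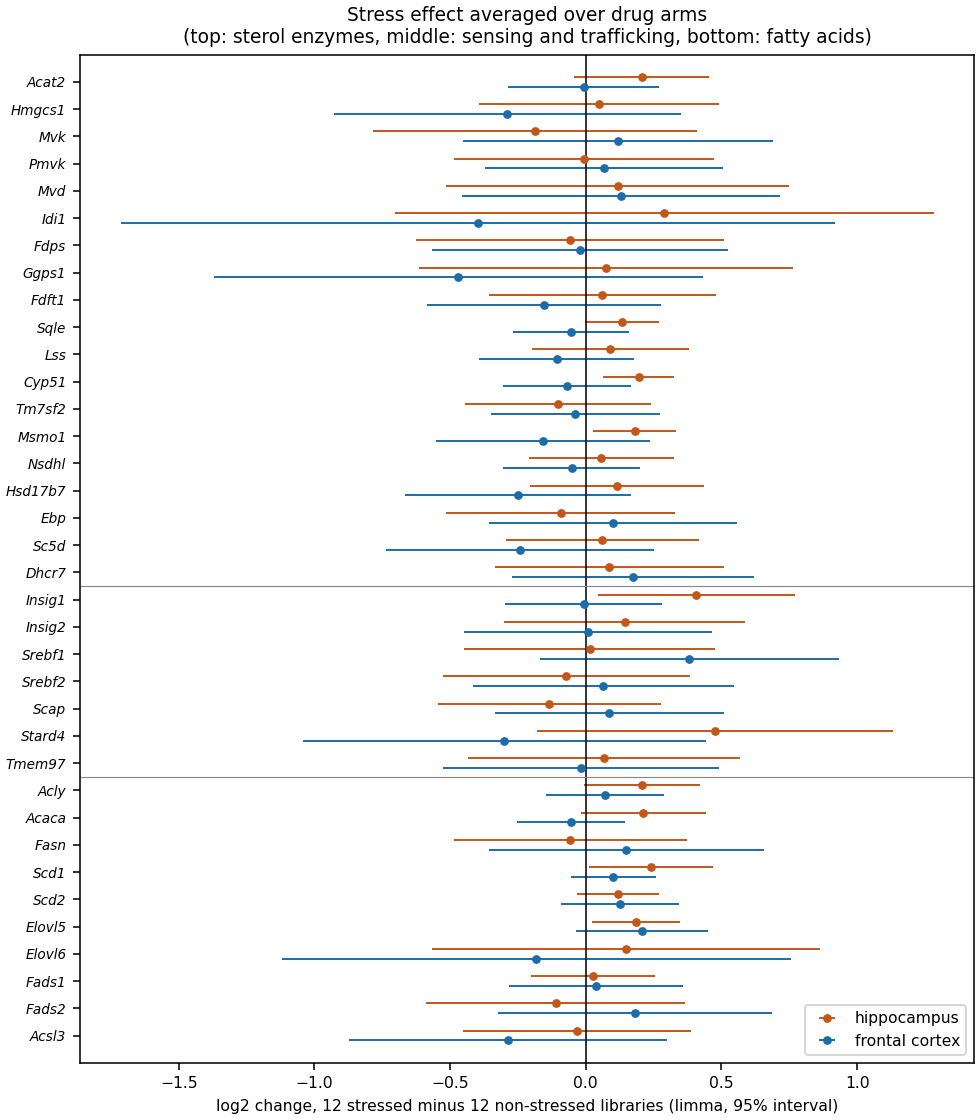
Log2 change after stress averaged over drug arms (x axis, limma estimate with 95% interval) for each member (y axis) in hippocampus (orange) and frontal cortex (blue), 12 against 12 libraries. Of the hippocampal intervals, those of Cyp51, Msmo1, Insig1, Scd1 and Elovl5 lie above 0 without adjustment; every frontal cortex interval spans 0.

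In the drug arms taken apart, hippocampal stress effects were called for 0 members in vehicle mice (0% of all genes) and 0 in esomeprazole mice (0%). Sterol enzymes were higher for 14 of 19 in vehicle mice (median 0.05) and for 9 of 19 in esomeprazole mice (median -0.02), and fatty acid genes for 7 of 10 in each (medians 0.09 and 0.12). At an unadjusted p under 0.05 stood 2 members in vehicle mice (Cyp51 at 0.23 ± 0.09 and Msmo1 at 0.27 ± 0.10), beside 0.544% of all genes, and 4 in esomeprazole mice (Acly, Scd1, Sqle and Acat2), beside 5.72%. With 2 surrogate variables limma called 2 members in esomeprazole mice, Acly at 0.38 ± 0.11 (adjusted p = 0.0484) and Acat2 at 0.36 ± 0.11 (adjusted p = 0.0492), beside 6.61% of all genes. Of the stressed esomeprazole libraries 4 had a high striatal score, as no non-stressed library did. The 5 hippocampal libraries of high striatal score had medians of 8377 reads of Acly and 1235 of Acat2, against 5942 and 962 in the other 19. The part of these libraries in the calls was not tested. In frontal cortex 0 members were called in either arm (0% of all genes); Elovl5 in vehicle mice (0.35, adjusted p = 0.755, limma) was the 1 member at an unadjusted p under 0.05, beside 6.47% of all genes, and esomeprazole mice had 0, beside 0.472%. Sterol enzymes of frontal cortex were higher after stress for 5 of 19 in vehicle mice (median -0.13) and 10 of 19 in esomeprazole mice (median 0.01). The interaction of stress and drug was called for 0 members in either tissue (0% of all genes), with 0 members at an unadjusted p under 0.05 in hippocampus (0.378% of all genes) and 0 in frontal cortex (0.725%).

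Esomeprazole went with lower sterol enzymes in frontal cortex, by small amounts that no single gene carried past the test. Averaged over the stress arms 18 of 19 were lower (median -0.14), Lss being the exception at 0.04 ± 0.14. Of the fatty acid genes 7 of 10 were higher (median 0.07). Of all 15040 genes 8428 were lower, with a median of -0.03. limma called 0 members (0% of all genes called), and Cyp51 was the 1 member at an unadjusted p under 0.05 (-0.26 ± 0.11, adjusted p = 0.999), beside 1.09% of all genes. edgeR and DESeq2 had 18 and 19 of 19 lower and called 0 members. Msmo1 changed by -0.38 ± 0.19 and Hmgcs1 by -0.31 ± 0.31 (limma, adjusted p = 0.999 for both). With 2 surrogate variables Cyp51 was at -0.12 ± 0.08 and Msmo1 at -0.10 ± 0.10 (limma, adjusted p = 0.965 for both), and the median of the sterol enzymes was -0.07. With the bulb score as a covariate these were -0.14 ± 0.10, -0.17 ± 0.16 and -0.08, and without both kinds of library -0.12 ± 0.09, -0.11 ± 0.12 and -0.08. Of the sterol enzymes, 18 of 19 were lower in non-stressed mice (median -0.22) and 17 of 19 in stressed mice (median -0.10). Genes within the same libraries are not independent replicates. Of all 15040 genes, 8105 were lower in non-stressed and 8164 in stressed mice. limma called 0 members in either (0% of all genes); at an unadjusted p under 0.05 were 1 in non-stressed mice (Cyp51), beside 4.44% of all genes, and 0 in stressed mice, beside 0.186%. The mean deviation of the 19 enzymes from the tissue mean was 0.16 ± 0.19 (log2, SD, 6 libraries) in non-stressed vehicle, -0.07 ± 0.14 in non-stressed esomeprazole, 0.02 ± 0.19 in stressed vehicle and -0.11 ± 0.24 in stressed esomeprazole libraries, and these ranges overlapped.

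The olfactory bulb markers moved with the same contrast: 12 of 13 were higher with esomeprazole in frontal cortex (median 1.30), and cortical neuron markers were lower for 10 of 12 (median -0.39). The bulb sum ran from 3394 to 51530 reads in non-stressed vehicle, from 4865 to 78030 in non-stressed esomeprazole, from 5097 to 107100 in stressed vehicle and from 4890 to 93750 in stressed esomeprazole libraries. Without the 7 libraries of low bulb score 17 of 19 sterol enzymes were lower (median -0.10), and without those of low no-gene share 19 of 19 (median -0.12); over all alternatives the count ran from 16 to 19. The part of these markers in the result was not tested. In hippocampus 13 of 19 sterol enzymes were lower with esomeprazole (median -0.05), limma called 0 members (0% of all genes called) and 0 reached an unadjusted p under 0.05 (0.724% of all genes). By stress arm, 17 of 19 were lower in stressed mice (median -0.08), near the frontal cortex count, and 11 of 19 in non-stressed mice (median -0.09). Of all 15062 genes, 8652 were lower in stressed and 7267 in non-stressed mice of hippocampus. Striatal neuron markers were higher with esomeprazole there for 14 of 14 (median 0.98), and hippocampal neuron markers were lower for 14 of 14 (median -0.38), choroid plexus markers for 10 of 10 (median -0.70) and oligodendrocyte markers for 8 of 12 (median -0.09); their part in the result was not tested. Neither stress arm of hippocampus had a member called (0% of all genes) or at an unadjusted p under 0.05, beside 0.232% of all genes in non-stressed and 1.47% in stressed mice. With the authors' deposited scaling, which moves the median of all genes from -0.01 to 0.18, the members' median moved from -0.04 to 0.15 and lay below that of all genes under both; 12 of 36 members were above 0 with TMM and 35 of 36 with the deposited scaling. Without the libraries of low no-gene share 22 of 36 were higher (median 0.01). Sqle, the hippocampal member of smallest p, changed by -0.08 ± 0.07 and Lss by 0.15 ± 0.14 (limma, adjusted p = 1.00 for both). The esomeprazole effect in hippocampus minus that in frontal cortex was called for 0 members (0% of all genes), with 0 at an unadjusted p under 0.05 (0.849%).

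Between tissues, averaged over the 4 conditions, Acly and Acaca, which supply acetyl-CoA and malonyl-CoA, were lower in hippocampus than in frontal cortex. limma called 4 of 36 members beside 25.7% of all genes called; 1 was higher, beside 12%, and 3 lower, beside 13.8%. Acly was lower by a log2 difference of -0.36 ± 0.07 (adjusted p = 8.26e-05, limma) and Acaca by -0.31 ± 0.07 (adjusted p = 0.00064, limma). Tmem97 was at -0.48 ± 0.17 (limma, adjusted p = 0.0342) and Msmo1 was higher at 0.29 ± 0.10 (limma, adjusted p = 0.0322). Without the libraries of high striatal score Tmem97 (adjusted p = 0.0718, limma) and Msmo1 (adjusted p = 0.128) lost the call, as did Tmem97 without those of low bulb score (adjusted p = 0.221) and Msmo1 with edgeR (adjusted p = 0.0852) and DESeq2 (adjusted p = 0.0573). In non-stressed vehicle mice alone Acaca was the 1 member called (-0.48 ± 0.14, limma, adjusted p = 0.0243), beside 9.17% of all genes. In levels, 7 of 10 fatty acid genes, 6 of 7 sensing and trafficking genes and 10 of 19 sterol enzymes were lower in hippocampus.

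With the 12 libraries of low no-gene share left out, 12 members were called, beside 44.5% of all genes. The no-feature covariate called 19 (53.9% of all genes), 2 surrogate variables 22 (58.1%) and the fit without both kinds of library 16 (49.5%), the last with a group of 1 library. In the fit without the libraries of low no-gene share Stard4 was at -0.51 ± 0.08 (limma, adjusted p = 2.11e-06), Tmem97 at -0.40 ± 0.09, Acly at -0.28 ± 0.06, Lss at -0.24 ± 0.05 and Acaca at -0.22 ± 0.05. In that fit Dhcr7, the last reductase of the pathway, was higher at 0.22 ± 0.05 and Ebp, a sterol isomerase, at 0.13 ± 0.05, while Msmo1 at 0.17 ± 0.07 was not called (adjusted p = 0.0639, limma). Msmo1 was called in the other 3 fits, and the order of Stard4, Tmem97 and Acly differed among the 4. Oligodendrocyte and choroid plexus markers were higher and olfactory bulb markers lower in hippocampus, as given above. Their part in these level differences was not tested.

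**Figure D5:**
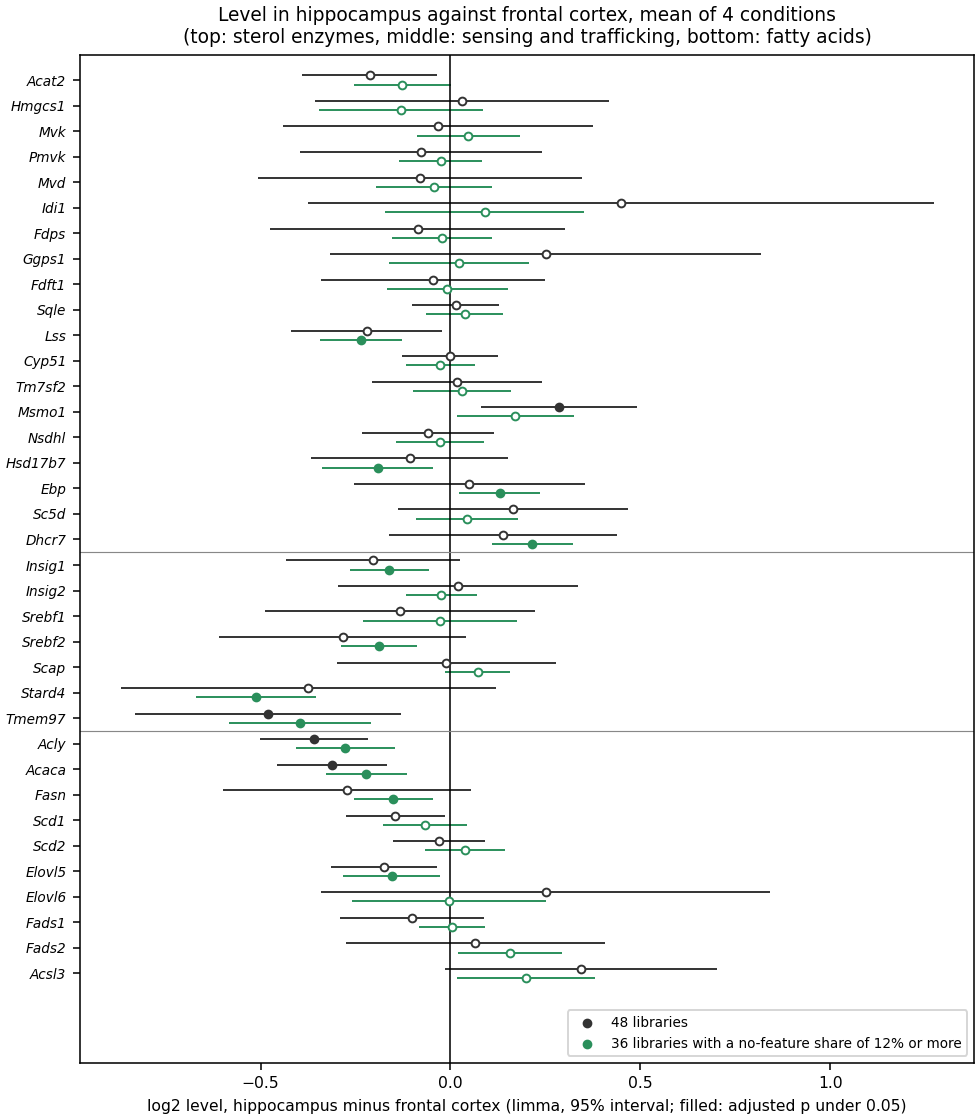
Log2 level in hippocampus minus frontal cortex (x axis, limma estimate with 95% interval) for each member (y axis), over 48 libraries (dark) and over the 36 with 12% or more of reads in no gene (green); filled points have an adjusted p under 0.05. Acly, Acaca and Tmem97 are filled on the lower side in both, and Stard4 only in the 36 libraries.

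Genes of 5 companion pathways, chosen with earlier results known, were called in no stress comparison. In hippocampus 11 of 24 genes of sterol export, storage and breakdown were higher after stress (median -0.04), 5 of 9 of precursor processing (median 0.03), 12 of 23 of elongation, activation and acetyl-CoA supply (median 0.02), 12 of 19 of fatty acid breakdown (median 0.03) and 10 of 16 of glycerolipid and ceramide synthesis (median 0.03). Of all genes tested there, 47.8% were higher (median -0.01). Mylip, a ligase that degrades the lipoprotein receptor, was at -0.27 ± 0.11 and Cyp7b1, an oxysterol hydroxylase, at -0.30 ± 0.14 (limma, adjusted p = 0.718 and 0.818). Decr1, a reductase of fatty acid breakdown, was at 0.19 ± 0.07 (limma, adjusted p = 0.718) and Ehhadh of the peroxisomal pathway at 0.30 ± 0.15. Lpin1, a phosphatidate phosphatase, changed by 0.17 ± 0.13, the ligase gene Rnf139 by 0.21 ± 0.27, the acetyl-CoA synthetase gene Acss1 by 0.14 ± 0.07 and the elongation dehydratase gene Hacd2 by -0.19 ± 0.10. Gpam, the first acyltransferase of glycerolipid synthesis, changed by 0.16 ± 0.09 and Dgat2, the last, by -0.28 ± 0.22. In frontal cortex the same lists had 15 of 24, 5 of 9, 10 of 23, 17 of 19 and 10 of 16 genes higher. There 17 of 19 fatty acid breakdown genes were higher (median 0.13), beside 46.8% of all genes (median -0.02). limma called 0 of them, and 1 was at an unadjusted p under 0.05, beside 3.79% of all genes. With esomeprazole 16 of 19 were higher in frontal cortex too (median 0.08), beside 44% of all genes. Olfactory bulb markers were higher in both contrasts, as given above, and their part was not tested.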

How the data were processed

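Poly(A) RNA was sequenced as 151-base read pairs from stranded libraries, per the labels' protocols. The submitters' processing notes list STAR, HTSeq and DESeq2 with mm10 but give no version or role, and the strand setting of the counting is not given in the sources used here. The authors deposited a signal per gene, that is, read counts scaled by 1 factor for each library, and 100% of values were whole reads within 0.02. Recovered reads were rescaled by TMM (edgeR 4.0.16) within a tissue, or over both tissues for their comparison. Genes passing filterByExpr (minimum count 10) were tested with limma 3.58.1 (trend) on log2(normalised reads + 1), so that fold changes of low genes are understated, with 1 mean per group and Benjamini-Hochberg adjustment over all genes (threshold 0.05). The ± beside a change is limma's standard error. Stress and esomeprazole effects were averaged over the other factor or taken within it. Members, lists and tests were chosen with earlier results of these data known.

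Members described in detail were those of smallest p: 6 for hippocampal stress, 3 for frontal cortex stress, 3 for their difference and 2 for esomeprazole in each tissue, with the 4 of largest level difference between tissues. Of each companion list the 2 genes of smallest p in hippocampal stress were named. Positions of genes follow GENCODE vM21 (mm10). Of the members, 19 overlap another annotated gene, so their reads may be shared. Each library is taken as 1 of 6 mice per group, per the series text. Gene names turned into dates (24 per tissue) and 1 duplicated name concern no member. Alternatives included DESeq2 1.42.0, edgeR, sva 3.50.0, other scalings and fits without libraries that stand apart. R 4.3.3 and Python 3.11.15 were used.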

Additional observations from a re-analysis of the deposited data

Results flagged for a closer look

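Among the 13 members described in detail, 104 groups of 6 libraries were examined for a library far from the other 5 by Dixon's criterion. Of these, 20 held one, where chance flags about 1 in 20 groups, and 16 of the 20 were libraries with under 12% of reads in no gene. In hippocampus, the non-stressed esomeprazole library 4 was lowest for Insig1 (790 normalised reads, written 790.4), Scd1 (4153) and Idi1 (51.8), and highest for Srebf1 (5967) and Tmem97 (779). The stressed vehicle library 3 was lowest for Insig1 (1060, written 1060.2) and Lss (658) and highest for Srebf1 (4959). The non-stressed vehicle library 3 was highest for Srebf1 (5053) and Tmem97 (1029), and the stressed esomeprazole library 5 was lowest for Stard4 (165). In frontal cortex, Tmem97 was highest in non-stressed vehicle library 4 (1281), stressed vehicle library 3 (1198) and stressed esomeprazole library 3 (1035). Srebf1 was highest in non-stressed esomeprazole library 2 (6478) and Sqle in non-stressed esomeprazole library 3 (2811).

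The other 4 flagged values came from libraries with more than 12% of such reads. Sqle was highest in hippocampal stressed vehicle library 2 (2530 normalised reads, written 2529.6), a library of high striatal marker score. In frontal cortex Scd1 was highest in non-stressed vehicle library 3 (9437) and in stressed esomeprazole library 2 (11503, 1.15e+04 to 3 digits), and Elovl5 was lowest in stressed vehicle library 4 (2312). No cause of these values was tested.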

How the results depend on the processing

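The size of the members' change after stress, and in places its sign, depended on the libraries and covariates used. Over 14 alternative settings, hippocampal medians ran from 0.01 to 0.14 for sterol enzymes and from 0.02 to 0.13 for fatty acid genes. Those of sensing and trafficking genes ran from -0.10 to 0.16. Median log2 changes in hippocampus were, with the neighbouring-tissue marker score as a covariate, -0.0993 for sensing and trafficking and 0.0204 for fatty acid genes; fatty acid genes were at 0.0301 without the libraries of high striatal score and at 0.0215 without these and those of low no-gene share (chosen after seeing the data). In frontal cortex sensing and trafficking genes were at 0.246 without the libraries of low bulb score, and fatty acid genes at -0.0138 with 2 surrogate variables and 0.0135 without both kinds of library. For the difference between tissues, the score covariate gave -0.00778 for sterol enzymes and -0.159 for sensing and trafficking, which stood at -0.237 without the libraries of low bulb score.

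limma called 2 genes for hippocampal stress. edgeR called 7, DESeq2 127, the replicate block 1, the no-feature covariate 14, 2 surrogate variables 536, the fit without libraries of low no-gene share 12, and the fit without both kinds 5; the score covariate, the oligodendrocyte covariate and the fit without libraries of high striatal score called 0. With 2 surrogate variables 3 members were called, Cyp51 (adjusted p = 0.0326), Insig1 (0.0431) and Stard4 (0.047), beside 3.56% of all genes, and no other alternative called a member for averaged stress; in esomeprazole mice alone surrogate variables called Acly and Acat2. The adjusted p of Cyp51 reached 1.00 without the libraries of high striatal score. For frontal cortex stress (0 genes) edgeR called 1, DESeq2 10, the no-feature covariate 24 and surrogate variables 13, and DESeq2 called 15 for the difference between tissues (0). For levels between tissues (4 members, 3817 genes) the no-feature covariate called 19 members and 8005 genes, surrogate variables 22 and 8620, the fit without libraries of low no-gene share 12 and 6603, and that without both kinds 16 and 7362. The causes were not tested.

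Reversed were, in hippocampus, Scd1 under stress without both kinds (-0.0092), Idi1 without libraries of high striatal score (-0.155), Sqle under esomeprazole with the deposited scaling (0.10, below the median of all genes, which that scaling moves to 0.18, so that its sign follows the scaling) and Lss without both kinds (-0.0499). In frontal cortex under stress, Idi1 reversed with surrogate variables (0.12), without libraries of low no-gene share (0.0534) and without both kinds (0.11), and Stard4 with surrogate variables (0.0642) and without both kinds (0.0218). Leaving out each library in turn gave 0 to 5 genes called in hippocampus and 0 to 1 in frontal cortex, 0 members in either, and a median for sterol enzymes of 0.0542 to 0.118 in hippocampus and -0.0947 to 0.0026 in frontal cortex. Without both kinds of library a hippocampal group kept 1 library, in the hippocampal and the cross-tissue fits, assumed to vary like the others.

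In hippocampus the median correlation of deviations was 0.30 for libraries of the same replicate number and 0.32 for different numbers. In frontal cortex it was higher for the same number, at 0.44 against 0.09, though same-number pairs went down to -0.90. Across tissues within a condition it was 0.42 and 0.34. The labels do not state that the same number marks the same mouse, and the main fits took all libraries as independent. With same-numbered libraries of a condition blocked as if from the same mouse, 5 members differed in level between tissues, Elovl5 being added. Blocking by replicate number changed no other member's call. The deposited scaling was not run across tissues, which the authors scaled separately. The lowest value of any member was 15.98 normalised reads (Idi1 in a stressed esomeprazole library of frontal cortex). Whether depth limited such values was not tested.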
